A study of Homo sapiens with 4 samples.

Results

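The genes described here are 10 of the YAP-TEAD system: the co-activators YAP1 and WWTR1 (which encodes TAZ), their DNA-binding partner TEAD1, and 7 genes long known to respond to them, namely CCN1 (formerly CYR61), CCN2 (formerly CTGF), ANKRD1, AMOTL1, AMOTL2, AXL and LATS2. They were chosen by name, with earlier results of these data known. Each was represented by its brightest probe set with that symbol alone. All 10 were measured, each by exactly 1 such probe set, out of 18417 genes on the arrays. The cells were MiaPaCa2, a human pancreatic ductal adenocarcinoma line grown with fetal calf serum. There were 2 arrays of cultures given LY101-4B at 50 µM, presented by the series as an inhibitor of E2F, and 2 arrays of vehicle-treated cultures, all collected at 24 h; the vehicle itself is not named in the labels. A protocol text attached to the same samples names LY101-4D at 25 µM instead. The series calls the 2 cultures of each group biological replicates, and it has no untreated group, second dose or second time.

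YAP and TAZ do not bind DNA themselves. They enter the nucleus and join TEAD proteins on promoters and, more often, on distant enhancers, frequently beside AP-1. In the Hippo pathway the MST kinases activate the LATS kinases. LATS phosphorylates YAP and TAZ, which keeps them in the cytoplasm and marks them for degradation. The activity of the system is therefore set largely at the protein level, by cell contact, the actin cytoskeleton, serum factors and nutrients, and transcript levels of YAP1 and WWTR1 do not report it directly. Several targets act back on the pathway: LATS2 encodes a kinase that inhibits YAP, and the angiomotin-like proteins AMOTL1 and AMOTL2 hold YAP and TAZ at junctions. In pancreatic cancer, YAP is known as a factor that supports tumour growth.

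The promoters of 4 target genes are shown because they hold the TEAD recognition letters and belong to genes with and without a call below: AMOTL2 and AXL fell, CCN2 and ANKRD1 did not pass the test, and differences between these genes were not tested. Each window runs from 250 bases before to 50 bases after a RefSeq transcript start (GRCh38.p14), 5′ to 3′ on the gene's strand. Capitals mark GGAATG or its reverse complement CATTCC, the TEAD motif, and, in ANKRD1 only, also the AP-1 motif TGANTCA.

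CCN2, chr6:131951323-131951622, minus strand: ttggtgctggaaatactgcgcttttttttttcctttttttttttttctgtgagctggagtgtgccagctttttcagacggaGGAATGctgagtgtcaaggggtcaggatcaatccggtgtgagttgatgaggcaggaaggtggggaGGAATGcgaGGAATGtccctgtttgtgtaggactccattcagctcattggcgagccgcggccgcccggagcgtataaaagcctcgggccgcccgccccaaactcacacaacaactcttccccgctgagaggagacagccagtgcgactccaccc

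ANKRD1, chr10:90921038-90921337, minus strand: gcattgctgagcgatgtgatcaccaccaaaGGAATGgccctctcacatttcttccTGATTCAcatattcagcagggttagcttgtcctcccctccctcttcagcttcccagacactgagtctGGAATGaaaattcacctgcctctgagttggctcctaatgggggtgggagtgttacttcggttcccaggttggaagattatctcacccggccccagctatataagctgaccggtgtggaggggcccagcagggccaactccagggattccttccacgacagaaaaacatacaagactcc

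AMOTL2, the second of its 2 RefSeq starts, chr3:134374398-134374697, minus strand: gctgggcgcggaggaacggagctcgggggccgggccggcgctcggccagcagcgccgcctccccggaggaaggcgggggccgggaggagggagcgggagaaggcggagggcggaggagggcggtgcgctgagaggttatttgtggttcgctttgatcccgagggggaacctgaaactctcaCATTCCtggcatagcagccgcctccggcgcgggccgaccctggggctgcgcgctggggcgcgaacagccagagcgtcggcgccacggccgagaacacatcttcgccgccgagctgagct

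AXL, the second of its 2 RefSeq starts, chr19:41226505-41226804, plus strand: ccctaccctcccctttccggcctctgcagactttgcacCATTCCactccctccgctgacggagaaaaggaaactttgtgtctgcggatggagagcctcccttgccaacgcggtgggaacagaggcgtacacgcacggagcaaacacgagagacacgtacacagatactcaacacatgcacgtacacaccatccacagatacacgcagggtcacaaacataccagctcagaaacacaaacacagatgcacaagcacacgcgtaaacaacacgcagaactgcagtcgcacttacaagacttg

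The CCN2 window held 3 TEAD motifs, beginning at positions -169, -104 and -95 counted from the start base as +1. ANKRD1 held 2, at -220 and -128, with an AP-1 motif at -195 between them. The AP-1 search accepted any middle base, and the letters found there were TGATTCA. A single reverse-strand match began at -69 in AMOTL2 and at -212 in AXL. Windows were found for 8 of the 10 genes, CCN1 and TEAD1 not among them, and gave 11 windows in all. A TEAD motif stood in 6 of the 11 windows, those of YAP1, CCN2, ANKRD1 and LATS2 and the second ones of AMOTL2 and AXL, and in 14% of 35116 windows of this length in the whole table. The AP-1 motif stood in 1 of the 11 and in 7.71% of the table, and the SRF motif known as the CArG box in 0 of the 11 and in 1.29%. Both strands were searched, and no TEAD match overlapped an AP-1 match. The array probe sets do not say which start the cells used, so the matches are given as letters only. The genes were chosen by name as YAP-TEAD factors and known targets, so their share with a TEAD motif is not a test.

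**Figure D1:**
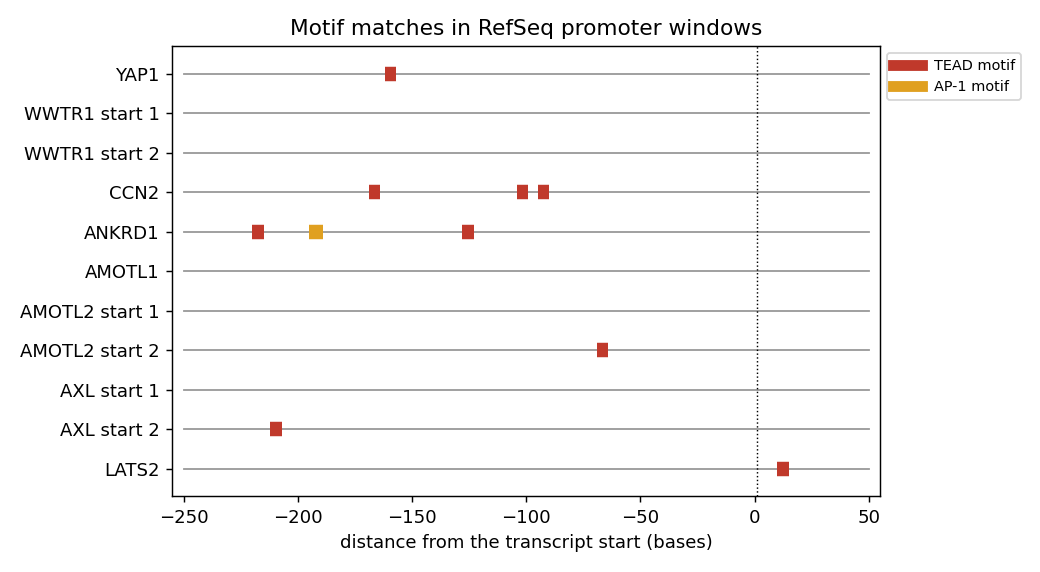
Motif matches in the 11 RefSeq promoter windows of 8 genes. The x axis is the distance from the transcript start in bases, each grey line is a window, red blocks are TEAD motifs and the yellow block is the AP-1 motif; CCN2 has 3 TEAD motifs and ANKRD1 has 2, and both WWTR1 windows and the AMOTL1 window have none.

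Gene expression values are log2 units from RMA, a procedure that corrects background, equalises the arrays' distributions and summarises the probes of a probe set. Differences are LY101-4B minus vehicle from a limma fit to all 4 arrays, with a moderated standard error (SE). A gene was called where its p, adjusted by the Benjamini-Hochberg method over 21214 probe sets, was under 0.05, and only called genes are said to have risen or fallen. In that fit 3 of the 10 genes, AMOTL2, CCN1 and AXL, fell and 0 rose, while 7 did not pass. Across all tested probe sets 10.5% were called lower, 9.1% higher and 19.6% in either direction. At an unadjusted p under 0.05 the counts for the 10 genes were 6 lower and 0 higher, against 17% and 15.2% of all tested probe sets. The median difference of the 10 genes was -0.25 log2 units, against 0.0047 over all 18417 genes. Because the 10 were chosen with earlier results of these data known, these counts and medians are a description and not a test.

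The co-activators and TEAD1 did not pass the test. YAP1 had 8.73 and 9.00 log2 units on the LY101-4B arrays, against 9.30 and 9.19 on the vehicle arrays. Both treated values lay below both vehicle values, and the difference of -0.38 ± 0.12 (SE; limma adjusted p 0.0838) fell short of the threshold over all genes. Its call depended on the settings: without LY101-4B replicate 2 the difference was -0.52 (limma adjusted p 0.0343), and with the same difference it also passed under an intensity trend (0.03) and over the brighter 50% of probe sets (0.032). WWTR1, the gene of TAZ, had 10.47 and 10.49 log2 units with LY101-4B, against 10.27 and 10.30 with vehicle. It was the only one of the 10 genes whose difference was above 0, at 0.19 ± 0.08 (SE; limma adjusted p 0.186; 0.0385 with an intensity trend). Whether the differences of YAP1 and WWTR1 differ from each other was not tested. TEAD1 had 7.96 and 8.01 with LY101-4B, against 8.22 and 8.28 with vehicle, a difference of -0.26 ± 0.09 (SE; limma adjusted p 0.0948; 0.0301 over the brighter 50% of probe sets).

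The largest fall among the 10 was that of AMOTL2, which encodes an angiomotin-like scaffold that binds YAP and TAZ and is a direct target of theirs. AMOTL2 had 6.10 and 6.14 log2 units on the LY101-4B arrays, against 7.24 and 7.46 on the vehicle arrays. The groups did not overlap, and the spread was 0.03 (SD, n = 2) in treated and 0.15 in vehicle arrays. The fall was 2.34-fold (-1.23 ± 0.11 log2 units, SE; limma adjusted p 0.00176) and ranked 197 among the falls of all 18417 genes. It stayed past the threshold in all 12 alternative settings, with differences between -1.34 and -1.12.

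CCN1 fell 1.85-fold. It encodes a secreted matricellular protein that binds integrins, and it is among the most used readouts of YAP. The 2 LY101-4B arrays gave 7.66 and 7.88 log2 units, against 8.59 and 8.72 on the vehicle arrays. Both treated values lay below both vehicle values, and the difference was -0.88 ± 0.11 (SE; limma adjusted p 0.0053). In all 12 alternative settings CCN1 also passed, with differences from -0.997 to -0.771. CCN1 is an immediate early gene as well, responding to serum within minutes, and its change is set beside those of AP-1 genes below.

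AXL, a receptor tyrosine kinase of the TAM family that YAP and TEAD are known to induce, fell less, by 1.41-fold. Its values were 8.38 and 8.50 log2 units with LY101-4B, against 8.90 and 8.98 with vehicle. The 2 groups did not overlap, and the difference was -0.50 ± 0.09 (SE; limma adjusted p 0.0177). This call was lost without LY101-4B replicate 1 (-0.44, limma adjusted p 0.0535), vehicle replicate 1 (-0.53, 0.0931) or vehicle replicate 2 (-0.46, 0.139), and with the same difference when all 33297 rows of the table were tested (0.0587). With 3 arrays the fit estimates the spread less well, and a call lost that way is not evidence of a smaller change.

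CCN2 and ANKRD1, the other targets most used as readouts, did not pass. CCN2, a secreted relative of CCN1, had 6.65 and 6.33 log2 units with LY101-4B, against 6.41 and 6.65 with vehicle. Its groups overlapped, with a difference of -0.04 ± 0.14 (SE; limma adjusted p 0.89) and a 95% interval from -0.40 to 0.32. ANKRD1, a stress-inducible ankyrin repeat protein of muscle and other cells, had 4.68 and 4.55 with LY101-4B, against 4.71 and 4.64 with vehicle. The difference was -0.06 ± 0.09 (SE; limma adjusted p 0.741), with a 95% interval from -0.29 to 0.17. In signal brightness, which is not transcript level, the ANKRD1 probe set lay at percentile 17.9 and that of CCN2 at percentile 50.2 of the genes' probe sets. No detection calls were used here, so whether ANKRD1 was above background is not known, and RMA compresses differences of dim probe sets. The intervals of AMOTL2 (-1.49 to -0.97) and CCN1 (-1.17 to -0.60) lay wholly below that of CCN2, but these differences between genes were not tested.

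AMOTL1 and LATS2, the remaining feedback genes, had values just below those of the vehicle arrays and did not pass. AMOTL1 had 5.89 and 5.99 log2 units with LY101-4B, against 6.19 and 6.10 with vehicle, a difference of -0.21 ± 0.09 (SE; limma adjusted p 0.193). LATS2 had 7.88 and 7.93 with LY101-4B, against 8.18 and 8.11 with vehicle. The LATS2 difference was -0.24 ± 0.09 (SE; limma adjusted p 0.12; 0.0412 over the brighter 50% of probe sets). The smallest difference called on the arrays under the main settings was 0.32 log2 units in size, and those of AMOTL1, LATS2, TEAD1 and WWTR1 were smaller. In 7 of the 10 genes both treated arrays lay below both vehicle arrays, in 1 (WWTR1) both lay above, and in 2 (CCN2 and ANKRD1) the groups overlapped. Among all tested probe sets 29.5% were arranged in the first way and 28.5% in the second.

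**Figure D2:**
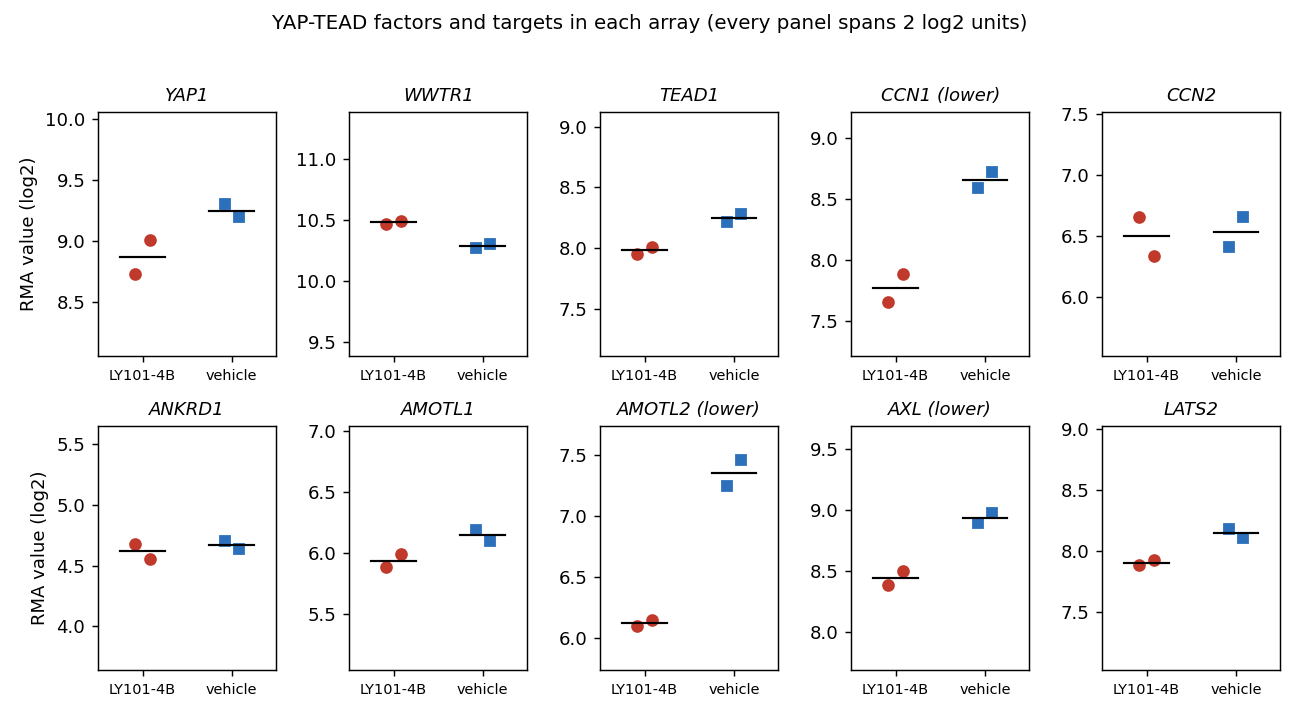
Values of the 10 genes on each array. The y axis is the RMA value in log2 units and every panel spans the same height, red circles are LY101-4B arrays, blue squares vehicle arrays and black lines group means of 2 arrays; AMOTL2, CCN1 and AXL are the genes called lower.

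**Figure D3:**
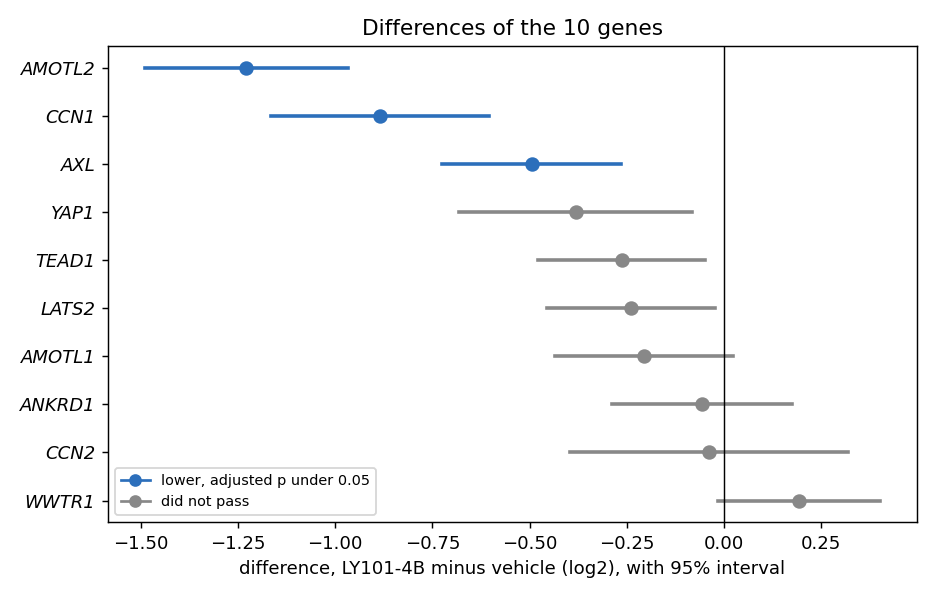
Differences of the 10 genes, LY101-4B minus vehicle, in log2 units. Points are limma estimates, lines their 95% intervals, blue the genes called lower and grey those that did not pass; AMOTL2 lies at -1.23, CCN1 at -0.88 and AXL at -0.50, and CCN2 (-0.04) and ANKRD1 (-0.06) lie near 0.

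Among the partners of YAP and TAZ on DNA, TEAD4 fell while TEAD1, TEAD2 and TEAD3 did not pass. TEAD4, a TEAD paralogue that binds the same letters, had 7.78 and 7.84 log2 units with LY101-4B, against 8.62 and 8.63 with vehicle, a 1.75-fold fall (-0.81 ± 0.09, SE; limma adjusted p 0.00295). It passed in all 12 alternative settings. TEAD4 was the only called gene among 8 measured TEAD paralogues, vestigial-like cofactors and other nuclear partners. That was 12.5% called lower, against 10.5% of all tested probe sets. The median difference of the 8 was -0.10, and limma called 0 of them higher. Before adjustment, at a limma p under 0.05, 0 were higher and 2 lower, against 15.2% and 17% of all tested probe sets. Whether TEAD4 differs from its paralogues in its change was not tested.

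AP-1 subunits share many enhancers with TEAD. Of 7 measured, 4 rose, 0 fell by limma and 3 did not pass, with a median difference of 0.91 log2 units. The 4 were 57.1% of the list, against 9.1% of all tested probe sets called higher. Unadjusted limma p under 0.05 gave 4 higher and 1 lower, against 15.2% and 17% of all tested probe sets. JUND rose 2.28-fold, FOSB 2.10-fold, FOS 2.02-fold and JUNB 1.87-fold, with limma adjusted p from 0.0016 to 0.00398. All 4 of these calls held in every one of the 12 alternative settings. JUN (0.20), FOSL2 (0.0069) and FOSL1 (-0.31 log2 units) did not pass, and both treated arrays of FOSL1 lay below both vehicle arrays. FOS, like CCN1 an immediate early gene, had 7.38 and 7.26 log2 units with LY101-4B, against 6.39 and 6.22 with vehicle, so that its treated arrays were the higher ones whereas those of CCN1 were the lower.

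Upstream, of 24 measured Hippo kinases and adaptors 4 (16.7%) fell, against 10.5% of all tested probe sets. By limma 0 rose and 20 did not pass, and the median difference was -0.13. Using an unadjusted limma p under 0.05, 1 was higher and 8 lower, against 15.2% and 17% of all tested probe sets. All 4 genes that fell were scaffolds that help to activate the LATS kinases and none was a kinase. NF2, the gene of the membrane-linked tumour suppressor merlin, had 9.07 and 9.33 log2 units with LY101-4B, against 9.97 and 9.91 with vehicle, a 1.67-fold fall (limma adjusted p 0.00956). FRMD6 fell 1.44-fold, WWC1 (KIBRA) 1.42-fold and WWC2 1.41-fold, with limma adjusted p from 0.0162 to 0.0241. Calls of this list were lost when single arrays were left out. With 1 array left in a group the fit estimates the spread less well, so such a loss is not evidence of a smaller change. Without vehicle replicate 1 the differences were -0.71 for NF2, -0.60 for FRMD6, -0.54 for WWC1 and -0.52 for WWC2. When all rows were tested 1 of the list was called lower.

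Among 11 measured junctional and cytoplasmic regulators of YAP and TAZ 2 (18.2%) fell, against 10.5% of all tested probe sets. None rose by limma. The counts at an unadjusted limma p under 0.05 were 0 higher and 5 lower, against 15.2% and 17% of all tested probe sets. FAT1, a giant cadherin that acts upstream of the Hippo kinases, had 7.42 and 7.64 log2 units with LY101-4B, against 8.84 and 8.90 with vehicle. That was a 2.53-fold fall (limma adjusted p 0.00148), which passed in all 12 alternative settings. DLG1, a polarity scaffold at junctions, fell 1.57-fold (limma adjusted p 0.00896), a call lost without vehicle replicate 2 (0.0711), which left 1 of the list. Over the brighter 50% of probe sets 4 of the list were called lower.

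A published score of 22 YAP and TAZ target genes holds 6 of the 10 genes and 16 others. Over the whole score 6 of 22 fell, 1 rose and 15 did not pass, and the median difference was -0.30 log2 units. That was 27.3% lower and 4.55% higher, against 10.5% and 9.1% of all tested probe sets. Among the 16 others, CRIM1, which encodes a membrane regulator of BMP signalling, fell 1.70-fold (limma adjusted p 0.00644), CCDC80 1.35-fold (0.0397) and FJX1 1.32-fold (0.0337). The call of CRIM1 held in all 12 alternative settings. The number of the 16 called lower was 1 without LY101-4B replicate 1, without vehicle replicate 1 or without vehicle replicate 2, and 5 without LY101-4B replicate 2; it was 1 with all rows tested, and 5 or 6 under 5 other settings (intensity trend, array centring, cyclic loess, the brighter 50% and the mean of a gene's probe sets). GADD45A was the only one of the 16 called higher. It had 10.91 and 11.15 log2 units with LY101-4B, against 9.27 and 9.39 with vehicle, a 3.26-fold rise (limma adjusted p 0.000958). GADD45A is also a stress gene with several known inducers other than YAP.

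Of 18 further reported targets 6 (33.3%) fell, against 10.5% of all tested probe sets. By limma 0 rose, and the median difference was -0.0027. With an unadjusted limma p under 0.05, 3 were higher and 6 lower, against 15.2% and 17% of all tested probe sets. Among the 6 that fell were 3 genes of caveolae, the flask-shaped pits of the plasma membrane, with CAVIN2 and CAV1 as the largest falls of the list. CAVIN2 had 6.39 and 6.34 log2 units with LY101-4B, against 8.44 and 8.46 with vehicle, a 4.26-fold fall (-2.09 ± 0.08, SE; limma adjusted p 0.00043). CAV1, which encodes the caveolar coat protein caveolin-1, had 7.85 and 8.14 with LY101-4B, against 9.59 and 9.63 with vehicle, a 3.06-fold fall (limma adjusted p 0.00122). The cyclin D1 gene CCND1 fell 2.23-fold, CAVIN1, the gene of another caveolar coat protein, 2.16-fold, BIRC5, the gene of survivin, 1.88-fold and DKK1, a secreted Wnt inhibitor, 1.75-fold. CCND1 and BIRC5 are genes of cell division with known regulators other than YAP. Apart from DKK1, which missed the threshold without vehicle replicate 2 (limma adjusted p 0.058), these calls held in all 12 alternative settings.

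The actin-linked factor SRF and TGF-beta signalling share targets such as CCN1, CCN2 and ANKRD1 with YAP. In the SRF and MRTF list 4 of 14 measured genes fell and 1 rose, with a median difference of -0.17. That was 28.6% lower and 7.14% higher, against 10.5% and 9.1% of all tested probe sets. VCL, the gene of the adhesion protein vinculin, had 8.17 and 8.31 log2 units with LY101-4B, against 9.27 and 9.39 with vehicle, a 2.13-fold fall (limma adjusted p 0.00196). TAGLN fell 1.83-fold, the tropomyosin gene TPM2 1.49-fold and ACTB, the beta-actin gene, 1.28-fold, whereas TGFB1I1, a focal adhesion gene, rose 1.48-fold. Without either vehicle array 2 of the list were called lower and 0 higher. ACTB (limma adjusted p 0.0402) also missed the threshold under cyclic loess (0.0747), without LY101-4B replicate 1 (0.0933), with all rows tested (0.0984) and with the replicate number as a block (0.0523).

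Of 15 measured TGF-beta genes 4 fell, 0 rose by limma and 11 did not pass, with a median difference of 0.05. The 4 were 26.7% of the list, against 10.5% of all tested probe sets called lower. By unadjusted limma p under 0.05, 3 were higher and 5 lower, against 15.2% and 17% of all tested probe sets. SMAD2 (0.33) was among these 3 higher genes, but its other, dimmer probe set was called lower (-0.52 log2 units, limma adjusted p 0.0435). ID3 fell 1.88-fold, ID1 1.45-fold and ID2 1.35-fold; they encode inhibitors of basic helix-loop-helix factors and respond chiefly to BMP signals. SMAD3, the gene of a TGF-beta signal transducer, had 7.24 and 7.32 log2 units with LY101-4B, against 8.13 and 8.03 with vehicle, a 1.74-fold fall (limma adjusted p 0.00372). ID1 and ID2 missed the threshold without LY101-4B replicate 1, without either vehicle array and with all rows tested, which left 2 of the list lower. With LY101-4B replicate 1 or LY101-4B replicate 2 left out, 1 of the list was called higher.

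None of 10 measured paralogues and ligands of the target genes was called by limma in either direction. At an unadjusted limma p under 0.05, 3 were higher and 0 lower, against 15.2% and 17% of all tested probe sets. MERTK, a TAM receptor like AXL, had 6.20 and 6.31 log2 units with LY101-4B, against 5.94 and 5.65 with vehicle, a difference of 0.46 ± 0.12 (SE; limma adjusted p 0.052), and was called higher with an intensity trend (0.0427). GAS6, which encodes a ligand of AXL and MERTK, had 5.84 and 5.86 with LY101-4B, against 5.60 and 5.64 with vehicle, a difference of 0.23 ± 0.08 (SE; limma adjusted p 0.122). Over all 121 other measured genes of these lists, 24 (19.8%) fell and 6 (4.96%) rose, with a median difference of -0.10. The shares of all tested probe sets were 10.5% and 9.1%, and those of all 18417 genes 10.7% and 8.88%. The lists were chosen with earlier results of these data known, so the 24 and 6 describe these lists and are not a test. Without vehicle replicate 1 the number that fell was 14 and without vehicle replicate 2 it was 13.

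**Figure D4:**
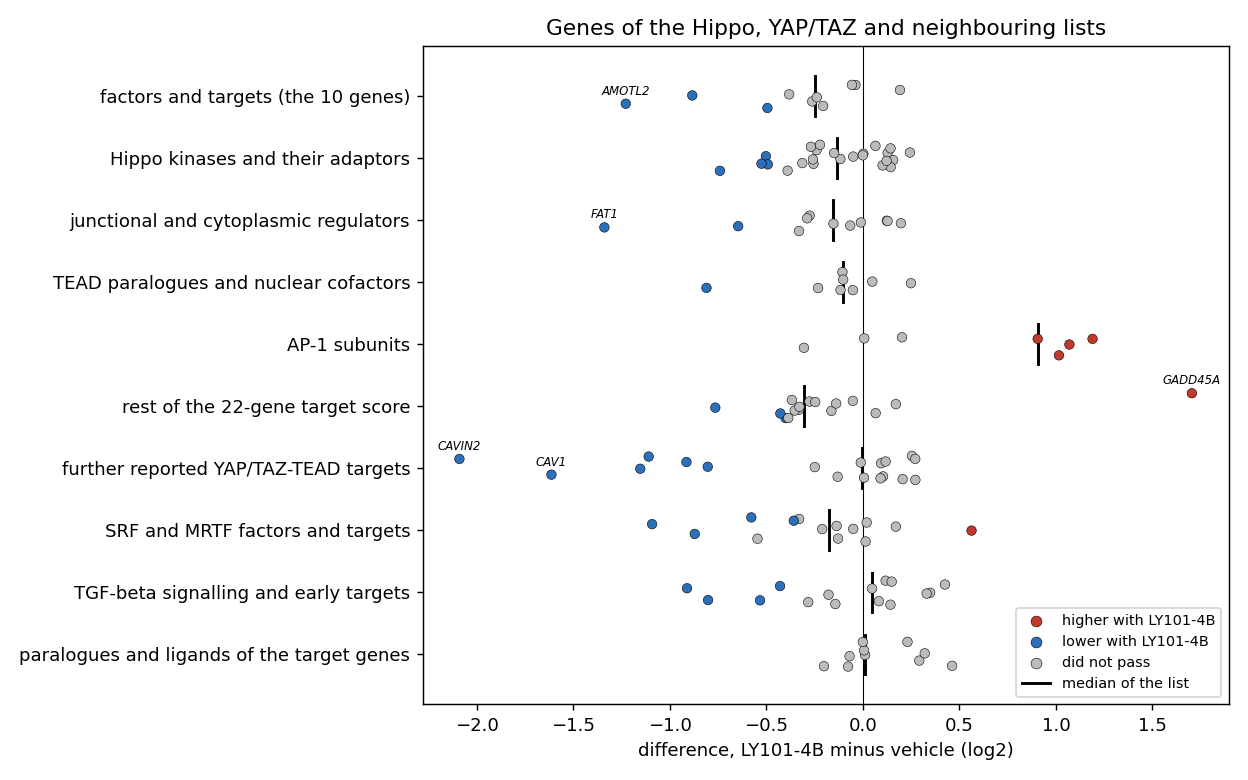
Differences, LY101-4B minus vehicle, of the 10 genes and of 9 other lists. The x axis is in log2 units, each point is a gene, red and blue points were called higher and lower, grey points did not pass, black bars are list medians and genes beyond 1.2 log2 units are named; CAVIN2 lies at -2.09, FAT1 at -1.34 and GADD45A at 1.70.

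Of 8 measured epithelial markers 4, and of 5 mesenchymal ones 2, were brighter than the median gene. The epithelial keratin genes KRT18 and KRT8 and the mesenchymal filament gene VIM were bright, at percentiles 99.6 to 99.8 of the genes' probe sets. The epithelial adhesion genes CDH1 (4.63 and 4.53 log2 units with LY101-4B, 4.44 and 4.53 with vehicle) and EPCAM were dim, at percentiles 16.1 and 7.8. The mesenchymal SNAI2, CDH2 and FN1 were also dim, at percentiles 17.8, 19.6 and 14.5; these 5 dim genes were picked for naming once their levels were known. KRT8 fell by 0.84 and KRT18 by 0.57 log2 units; the other 6 epithelial markers and the 5 mesenchymal ones did not pass. The 9 measured fibroblast markers had a mean level of 5.49 and 5.43 with LY101-4B and 5.47 and 5.38 with vehicle. Of these, 2 were brighter than the median gene. COL1A2, the brightest, had 10.40 and 10.33 with LY101-4B, against 9.87 and 9.92 with vehicle (percentile 94.4). COL1A2 rose by 0.47 and COL3A1 fell by 0.54 log2 units. The calls of KRT18 and COL1A2 were lost without either vehicle array, and that of COL3A1 without vehicle replicate 1 or without either LY101-4B array; those of both collagen genes were also lost with all rows tested. No leukocyte (3 measured) or endothelial (4 measured) marker was called by limma, also at an unadjusted p under 0.05. In both lists 0 were brighter than the median gene. Their brightest genes were CD14 (percentile 36.5) and VWF (percentile 23.9). In bulk RNA, fewer cells of a kind and less RNA per cell cannot be told apart. Across the 21214 tested probe sets the LY101-4B arrays correlated at r = 0.994 and the vehicle arrays at 0.997, and array medians ran from 5.88 to 5.97 log2 units.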

How the data were processed

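RNA from 4 cultures was measured on Human Gene 1.0 ST arrays. The deposited table holds log2 expression values for 33297 probe sets, made with RMA per the submitters' processing notes; its version and filters are not given in the sources used. Symbols came from the platform annotation, checked against RefSeq identifiers (0 changed; 31 identifiers had no match): 19460 probe sets had 1 symbol, 1754 several and 12083 none. The 21214 with a symbol were tested 2-sided in R 4.3.3 by limma 3.58.1 (lmFit, then eBayes without trend or robust prior), with treatment as the only term; the residual degrees of freedom were 2 and those of the prior 3.75. For the 769 genes with several single-symbol probe sets the brightest stood for the gene. SDs are over n = 2 arrays, and the number of arrays limits the precision. The members and lists were chosen with earlier results of these data known, and 10 of 131 other list genes without a single-symbol probe set were not analysed here. Named from each list were up to 6 called genes with the largest difference, or the 2 with the smallest p. An exact permutation test of 2 against 2 arrays was not used, since it cannot reach the threshold. Promoter windows are from RefSeq (GRCh38.p14).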

Additional observations from a re-analysis of the deposited data

How the results depend on the processing

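Of the 10 genes, AMOTL2 and CCN1 stayed called lower in all 12 alternative settings. CCN2 stayed uncalled in all 12, and AMOTL1 and ANKRD1 in the 11 that gave them a value. AMOTL1 and ANKRD1 were not among the brighter 50% of probe sets. With an intensity trend YAP1 (-0.38) and WWTR1 (0.19) passed, which made 1 member higher. Over the brighter 50% of probe sets YAP1 (-0.38), TEAD1 (-0.26) and LATS2 (-0.24) passed, and 6 members were called lower. With all rows tested AXL (-0.50) did not pass, and 1162 and 1271 probe sets were called higher and lower, against 1930 and 2236; more rows enter the adjustment there. Leaving out each array in turn gave ranges of -0.52 to -0.24 for YAP1, -0.20 to 0.12 for CCN2, -0.12 to 0.0069 for ANKRD1 and -0.55 to -0.44 for AXL, with 2 to 4 members called lower. CCN2 changed sign without LY101-4B replicate 2 or vehicle replicate 2 and ANKRD1 without LY101-4B replicate 2, uncalled each time. The probe sets called ranged from 755 to 1899 higher and from 811 to 2467 lower. Of the other list genes together, 13 to 28 were called lower; 11 were called higher with an intensity trend, 10 under cyclic loess and 12 over the brighter 50%, against 6; the cause was not tested. In these 3 settings the lists of Hippo kinases, further targets and TGF-beta genes, which had 0 called higher, had 1 to 3. Array centring moved the median of all genes to -0.06 and cyclic loess to -0.0048, and neither changed a call of the 10 genes. The replicate numbers of the titles share only a number: deviations of same-numbered arrays correlated at 0.116 with 2 pairs. With the replicate number as a block 3 members were called lower, 23 other list genes lower and 6 higher, and 2024 and 2312 probe sets higher and lower. Arrays of 2 per group limit precision, and no detection calls were used to set signal over background.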

Other observations

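After CAV1, CAVIN1 and CAVIN2 had been seen to fall, 6 further genes of the caveolar coat were looked up, of which 5 were measured; as a list chosen after values were seen it was given no test. PACSIN2, which encodes a membrane-bending protein at caveolar necks, had 8.36 and 8.46 log2 units with LY101-4B, against 9.21 and 9.06 with vehicle. Its difference was -0.73, and both treated arrays lay below both vehicle arrays. EHD2, an ATPase that anchors caveolae to the membrane, had 7.79 and 7.90 with LY101-4B, against 7.79 and 7.74 with vehicle. CAVIN3 had 8.92 and 8.74 with LY101-4B, against 8.65 and 8.58 with vehicle, so its treated arrays were the higher ones. The muscle genes CAV3 and CAVIN4 overlapped between groups. The caveolar genes thus did not all lie on the same side.

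The 14-3-3 proteins, which bind phosphorylated YAP and TAZ in the cytoplasm, were looked up in the same way, with no test. In 6 of the 7 genes both treated arrays lay below both vehicle arrays, an arrangement found in 29.5% of all tested probe sets, and the median difference was -0.19 log2 units. YWHAH had 9.58 and 9.48 with LY101-4B, against 10.14 and 10.19 with vehicle, a difference of -0.63. SFN, the gene of 14-3-3 sigma, which is known as an epithelial and p53-responsive member, had 7.77 and 7.83 with LY101-4B, against 6.99 and 7.08 with vehicle, a difference of 0.76. The other 5 lay between -0.32 for YWHAQ and -0.02 for YWHAZ.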
